A study of Mus musculus with 6 samples.

Results

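The kallikreins described here are the 27 rows, of 43280 in the unfiltered count table, whose gene symbol starts with Klk. Pseudogenes were included, and Klkb1, which encodes the kallikrein of blood plasma, was left out. They comprise Klk1, 13 Klk1b genes (here called the Klk1b copies), the pseudogene Klk1b7-ps and 12 genes named Klk4 to Klk15. RNA was sequenced from the submandibular gland (SMG), a major salivary gland, of adult female mice. The 6 libraries form 2 groups of 3, Wildtype (WT) and Hs3st3a1;3b1 DKO, and the labels number them 1, 4 and 5 in each group. In DKO mice both Hs3st3a1 and Hs3st3b1, which encode heparan sulfate 3-O-sulfotransferases, are disrupted. In the study's account Hs3st3a1 carries a frameshift deletion made with zinc finger nucleases in its opening exon, Hs3st3b1 carries a LacZ cassette, the background is C57BL/6, and the WT mice are littermates. Several founders were obtained, and the founder line behind these libraries was not given in the sources used here.

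Tissue kallikreins are secreted serine proteases of the trypsin family, encoded side by side in a large gene cluster. Klk1 releases kinins, short vasoactive peptides, from kininogen. In the mouse an ancestral Klk1 was duplicated repeatedly to give the Klk1b copies, which granular duct cells of the SMG make and store together with other secreted products such as EGF. Several copies are known as partners or processing enzymes of such products. Klk1b9, Klk1b22 and Klk1b26 encode EGF-binding proteins, and Klk1b16 encodes gamma-renin. The Klk4 to Klk15 genes act mainly in other tissues, such as skin, brain and forming enamel.

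All 27 genes lie on the plus strand of chromosome 7 (GENCODE M21, GRCm38), in a cluster of 539 kb from 43690418 to 44229618. Klk4 to Klk15 come before the pseudogene, the 13 Klk1b copies span 43950664 to 44220703, and Klk1 closes the row at 44225360 to 44229618. Only 4.66 kb separates the end of Klk1b5 from the start of Klk1, and neighbouring Klk1b copies are 4.19 to 46.6 kb apart.

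Klk1 and its copies carry similar sequence around the site where the copies' transcripts start. The stretches below show it for Klk1 and 4 copies, namely the most abundant (Klk1b26), those with the largest and smallest change between groups (Klk1b24 and Klk1b11) and that with the lowest adjusted p (Klk1b4). They come from RefSeq promoter windows (GRCm38.p6, plus strand, 250 bases before to 50 after the annotated start), and capitals mark the letters TTTAAA with the 30 bases before them. The annotated start of Klk1 lies further upstream than those of the copies, so its window ends before the corresponding position. The bases of Klk1 at that position were not read, and only the 30 matching bases are given.
Klk1 (chr7:44225380-44225409): aggggtggggctgtgggggagaatgagggt
Klk1b11 (chr7:43995807-43995842): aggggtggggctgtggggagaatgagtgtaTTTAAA
Klk1b26 (chr7:44012622-44012657): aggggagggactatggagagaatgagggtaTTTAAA
Klk1b24 (chr7:44188175-44188210): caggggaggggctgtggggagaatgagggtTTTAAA
Klk1b4 (chr7:44207355-44207390): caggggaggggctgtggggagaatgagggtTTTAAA

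The letters TTTAAA, which read the same on both strands, stood in the windows of 13 of 13 Klk1b copies, between 48 bases before and 4 bases after the annotated start. They stood in 0 of 14 windows of Klk4 to Klk15 and in 13.2% of all 32851 windows. They were absent from the window of Klk1, which ends before the position they hold in the copies. The letters GAGAATGAG, searched on both strands, stood in 11 of 13 copies and in Klk1, in 0 of 14 windows of Klk4 to Klk15 and in 0.417% of all windows. Over 200 to 253 aligned bases, the windows of the copies were 79.0% to 86.8% identical to that of Klk1. These letters describe the windows and do not show that a factor binds there.

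The coding sequences show the same 2 tiers (GENCODE M21 transcripts). The 78 pairs of Klk1b copies were 79.8% to 93.5% identical (median 86.2%), and Klk1 was 81.4% to 95.2% identical to the 13 copies, the closest being its neighbour Klk1b5. Klk4 to Klk15 were 49.3% to 58.7% identical to Klk1 and its copies. The next stretches give 27 coding bases around the catalytic serine, with the 6 codons at the serine in capitals. Each stretch runs across an intron, so the coordinates are those of its first and last base.
Klk1 (chr7:44229042-44229434): tgtgcgGGTGACTCAGGAGGCCCActg
Klk1b24 (chr7:44191875-44192271): tgtgcgGGTGACTCAGGAGGCCCActg
Klk1b26 (chr7:44016390-44016785): tgtgcgGGTGACTCCGGAGGCCCActg
Klk1b22 (chr7:44116340-44116741): tgtaagGGAGACTCAGGAGGCCCActg
Klk1b4 (chr7:44211169-44211570): tgtgagCATGACTCAGGAGGCCCActg

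The 18 capitals were identical to those of Klk1 in 7 of 13 copies, differed at 1 base in 5 and at 2 bases in 1. Klk1b4 was the copy with 2 differences. Counted from 1 at the 5′ end of the stretch, its substitutions against Klk1 were C5A, G7C and G8A, the last pair of which replaces the glycine codon that opens the 6 codons in Klk1 and the other 12 copies. Klk1b26 carried A15C, and Klk1b22 carried G4A, C5A and T9A. Within the capitals, the 5 copies with 1 difference carried either A15C or T9A. A15C leaves a codon for serine and T9A a codon for glycine, so neither changes the encoded amino acid.

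**Figure D1:**
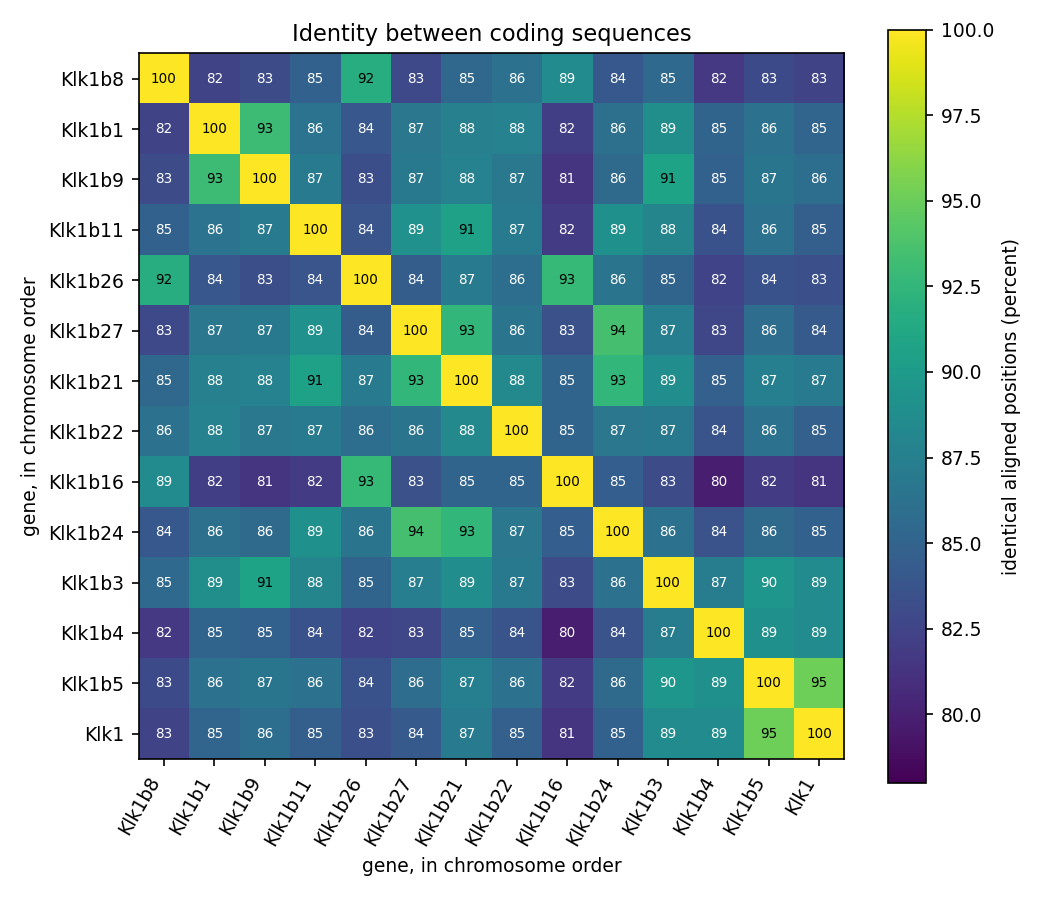
Percentage of identical aligned positions between the coding sequences of Klk1 and the 13 Klk1b copies, in chromosome order on both axes, with the diagonal at 100. The brightest cell off the diagonal is Klk1 with Klk1b5 (95.2%), and the dimmest is Klk1b16 with Klk1b4 (79.8%).

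Such likeness bears on how reads can be assigned. Of the distinct 50-base windows in a copy's annotated transcripts, 10.1% (Klk1b16) to 33.9% (Klk1b24) also occurred in the transcripts of another gene, as did 257 of the 1072 windows of Klk1. With windows of 100 bases the shares were 0 to 5.26% in the copies and 5.09% in Klk1. Klk8 and Klk15 shared 21.7% and 47.1% of 50-base windows, and 19.0% and 38.1% of 100-base windows, with genes outside the family. How reads that match several genes were counted was not given in the sources used here, so values of Klk1, single copies, Klk8 and Klk15 carry that uncertainty. The same holds for ratios of the copies to Klk1. The libraries do not keep strand, and Gm10109, a pseudogene on the minus strand with 3 to 11 counts per library, overlaps Klk1. Likewise 2310002F09Rik, on the minus strand with 1 to 4 counts per library, reaches from Klk14 to Klk8. Reads from the opposite strands at these places cannot be told apart.

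Total counts ranged from 23674258 to 29611975 per library. The counts of the targeted genes did not separate the groups. Hs3st3a1 had 15, 11 and 15 counts in WT 1, 4 and 5 and 11, 8 and 13 in DKO 1, 4 and 5, and Hs3st3b1 had 173, 203 and 261 against 255, 120 and 189, so the groups overlapped for both. WT and DKO therefore stand throughout for the libraries labelled WT and DKO. The libraries WT 5 and DKO 1 stood apart. Muc19, a mucin of the neighbouring sublingual gland, had 62150 counts in WT 5 and 3906 in DKO 1 but 27 to 120 in the other 4, and Ren1, a granular duct product, had 93 and 119 counts there but 11964 to 49381 elsewhere. Counts of kallikreins are therefore also given without these 2 libraries, a choice made after seeing the data. Egf, another granular duct product, was not low in them, with normalized counts of 70042 in WT 5 and 38965 in DKO 1. The other WT libraries had 64665 and 59917, and the other DKO libraries 33869 and 47401. The labels do not say that each library is a separate mouse. The p-values therefore set group differences against the spread between these libraries, which may in part be technical.

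The comparison of DKO with WT asks how the gland's transcripts differ when both sulfotransferase genes are disrupted. All 13 Klk1b copies were lower in the libraries labelled DKO, by a median of 0.94 on the log2 scale, while Klk1 did not pass the test and its libraries overlapped. Changes of the copies ran from -1.17 (Klk1b24) to -0.61 (Klk1b11) in log2, that is, transcripts fell by 34.7% to 55.6%. Over all 18606 rows tested, the median log2 fold change was 0.0011. Every DKO library was below every WT library for 13 of 13 copies. In comparison, 1.88% of all rows tested were lower in DKO at an adjusted p under 0.05 by the DESeq2 Wald test (2.9% changed in either direction), and 10.5% had all DKO libraries below all WT libraries. Adjusted p for the copies ranged from 2.06e-30 (Klk1b4) to 0.000956 (Klk1b9). In bulk tissue, fewer cells of a type and less RNA per cell cannot be told apart.

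**Figure D2:**
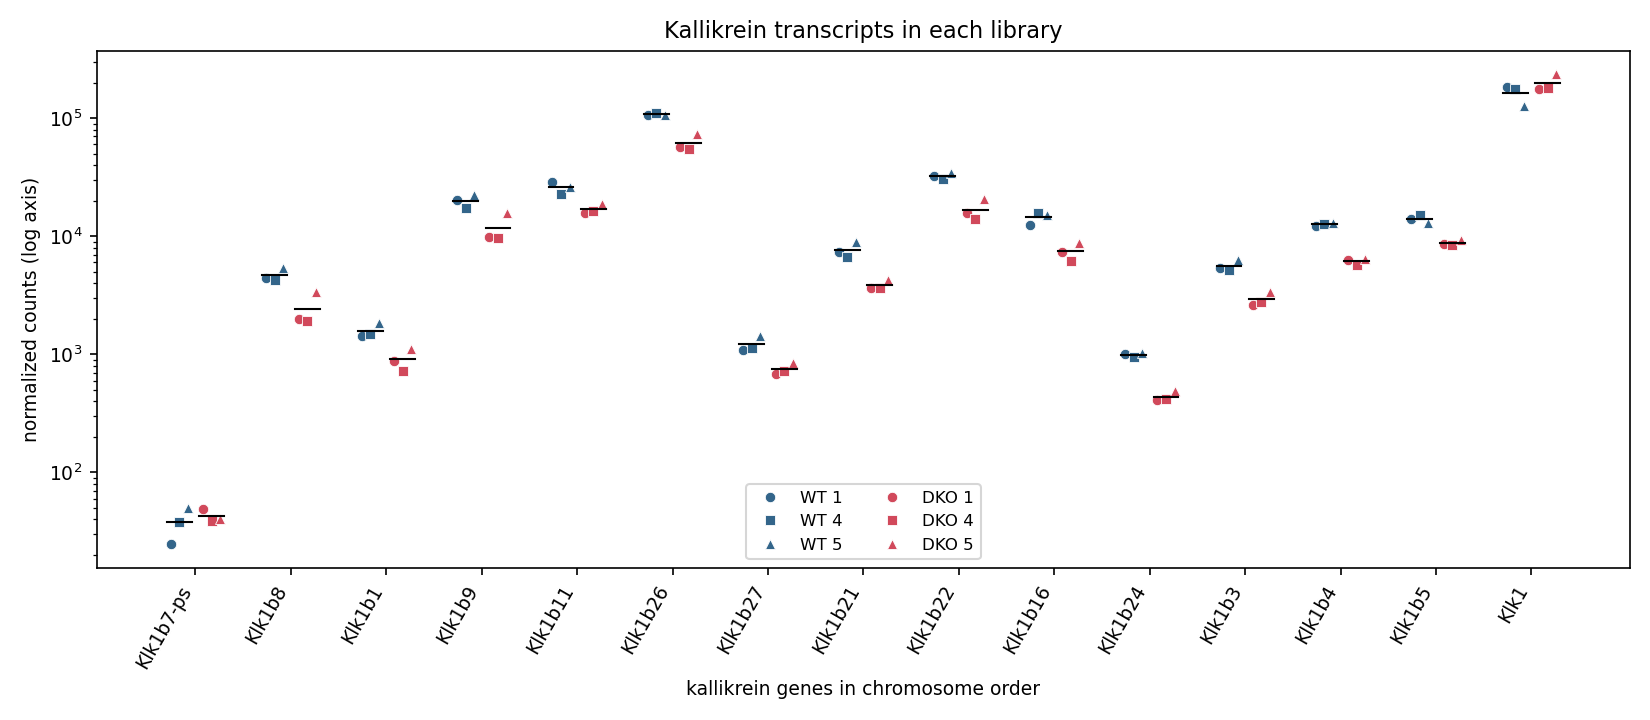
Normalized counts (log axis) of Klk1b7-ps, the 13 Klk1b copies and Klk1, in chromosome order, with a point for each library and a black line at each group's mean (n = 3). The WT points lie above the DKO points for every Klk1b copy, and the points of both groups mix for Klk1 and Klk1b7-ps.

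Klk1, the kinin-releasing enzyme, was the most abundant kallikrein. Its normalized counts were 184476, 177236 and 127764 in WT 1, 4 and 5 and 177278, 179959 and 235348 in DKO 1, 4 and 5. WT 5 was the lowest and DKO 5 the highest, and the other 4 libraries lay close together. The log2 fold change was 0.28 (95% interval -0.021 to 0.57, adjusted p = 0.424, DESeq2). That interval lies above the point estimate of every Klk1b copy.

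Klk1b26, an EGF-binding protein and prorenin-converting enzyme, was the most abundant copy. Its normalized counts were 107040, 109787 and 105828 in WT 1, 4 and 5 and 56615, 54571 and 73114 in DKO 1, 4 and 5. The WT libraries were within a few percent of each other, and DKO 5 stood above the other DKO libraries but well below any WT library. Transcripts fell by 42.9% (log2 fold change -0.81 ± 0.12 SE, adjusted p = 7.35e-09, DESeq2).

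Of the other EGF-binding proteins, Klk1b22 had 32394, 30515 and 34530 normalized counts in the libraries WT 1, 4 and 5, and 15577, 13931 and 20826 in DKO 1, 4 and 5. The groups were separated by a factor of 1.47 between the lowest WT and the highest DKO library. The log2 fold change of Klk1b22 was -0.95 ± 0.14 (SE, adjusted p = 7.35e-09, DESeq2). Klk1b9 had 20077, 17481 and 22373 against 9926, 9636 and 15617. Its groups came closest of all the copies, with the lowest WT library only 1.12 times the highest DKO library, and its log2 fold change was -0.77 ± 0.17 (SE, adjusted p = 0.000956, DESeq2).

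Klk1b4 and Klk1b3 lie side by side near the Klk1 end of the run, and both fell. Klk1b4 had 12188, 12773 and 12888 normalized counts in the libraries WT 1, 4 and 5, and 6335, 5713 and 6357 in DKO 1, 4 and 5. Both groups were tight, and this was the copy with the smallest standard error (log2 fold change -1.04 ± 0.085 SE, adjusted p = 2.06e-30, DESeq2). Klk1b3 had 5347, 5199 and 6339.5 in WT and 2616, 2764 and 3397 in DKO, a log2 fold change of -0.94 ± 0.13 (SE, adjusted p = 1.20e-10, DESeq2).

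Klk1b16, the gamma-renin gene, had 12449, 15788 and 15081 normalized counts in the libraries WT 1, 4 and 5, and 7352, 6144 and 8839 in DKO 1, 4 and 5. Its groups did not overlap, and its log2 fold change was -0.96 ± 0.14 (SE, adjusted p = 9.04e-09, DESeq2). Klk1b24, the copy with the largest fall, was also the least abundant, with 998, 950 and 1018 against 414, 417 and 487. Every WT library held at least 1.95 times the count of any DKO library, and the log2 fold change was -1.17 ± 0.12 (SE, adjusted p = 3.00e-19, DESeq2).

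Klk1b5, the copy nearest to Klk1 on the chromosome and in coding sequence, sided with the copies. It had 14030, 15228 and 12971 normalized counts in the libraries WT 1, 4 and 5, and 8512, 8452 and 9367 in DKO 1, 4 and 5, a log2 fold change of -0.68 ± 0.095 (SE, adjusted p = 1.35e-09, DESeq2). Klk1b11 had the smallest fall, from 28914, 22962 and 26261 to 15811, 16360 and 18892, a log2 fold change of -0.61 ± 0.11 (SE, adjusted p = 2.28e-05, DESeq2). Even there the highest DKO library stayed below the lowest WT library.

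For the remaining 4 copies the WT and DKO means (SD, n = 3) were as follows. Klk1b21 went from 7658 ± 1117 to 3856 ± 354 normalized counts, a log2 fold change of -0.99 (adjusted p = 2.16e-12, DESeq2). Klk1b8 went from 4671 ± 626 to 2421 ± 798, a log2 fold change of -0.95 (adjusted p = 0.000104, DESeq2). Klk1b1 and Klk1b27 were scarcer. Klk1b1 went from 1589 ± 220 to 907 ± 189, a log2 fold change of -0.81 (adjusted p = 0.000107, DESeq2), and Klk1b27 from 1213 ± 199 to 749.6 ± 80.1, a log2 fold change of -0.70 (adjusted p = 0.00028, DESeq2).

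The libraries moved together across copies. DKO 5 was the highest DKO library for 13 of 13 copies and for Klk1, and WT 5 was the highest WT library for 9 of 13 copies but the lowest for Klk1. Leaving out single libraries kept 11 to 13 copies lower at an adjusted p under 0.05. Klk1b8 did not pass without WT 1 (adjusted p = 0.278, DESeq2), WT 4 (0.0977) or DKO 4 (0.201), and Klk1b9 did not pass without WT 1 (0.443), WT 5 (0.0834) or DKO 4 (0.29). Without WT 5 and DKO 1 together, 9 of 13 copies were lower, the exceptions being Klk1b1, Klk1b8, Klk1b9 and Klk1b27, and the median log2 fold change of the copies was -0.76. By edgeR's quasi-likelihood test only Klk1b24 and Klk1b4 were lower at an adjusted p under 0.05, against 0.0269% of all rows tested, although 13 of 13 copies had an unadjusted p under 0.05.

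Summed, the Klk1b copies made up 1.01% ± 0.0718 of all counts in WT and 0.483% ± 0.0774 in DKO (SD, n = 3). Their shares were 1.06%, 0.926% and 1.04% in WT 1, 4 and 5 and 0.486%, 0.404% and 0.559% in DKO 1, 4 and 5, with no overlap. Such shares scale by total counts, which as size factors moved the median log2 fold change of all rows by -0.24. In normalized counts the copies summed to 248934 ± 5407 in WT and 140613 ± 22530 in DKO (SD, n = 3). Klk1 alone made up 0.66% ± 0.133 of all counts in WT and 0.677% ± 0.105 in DKO (SD, n = 3). WT libraries thus held more Klk1b than Klk1 counts, and DKO libraries the reverse.

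Because this contrast is between genes of the same library, it can be read without any scaling between libraries. The count of the copies over that of Klk1 was 1.34, 1.38 and 1.99 in WT 1, 4 and 5 and 0.735, 0.695 and 0.707 in DKO 1, 4 and 5. The DKO ratios were far closer to each other than the WT ratios, among which WT 5, the library with the least Klk1, stood out. The share of Klk1 in all kallikrein counts was 39.4% ± 5.19 in WT and 58.4% ± 0.711 in DKO (SD, n = 3). Each of 13 copies had a lower ratio to Klk1 in every DKO library than in any WT library, with log2 ratios lower by 0.89 to 1.46. The 13 ratios share their denominator, which was lowest in WT 5 and highest in DKO 5, and 15.1% of all rows tested likewise had every DKO ratio to Klk1 below every WT ratio. The two-sided exact permutation test gave p = 0.1 for each ratio, before and after Benjamini-Hochberg adjustment over the 13, which is the smallest value that 3 libraries against 3 allow.

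**Figure D3:**
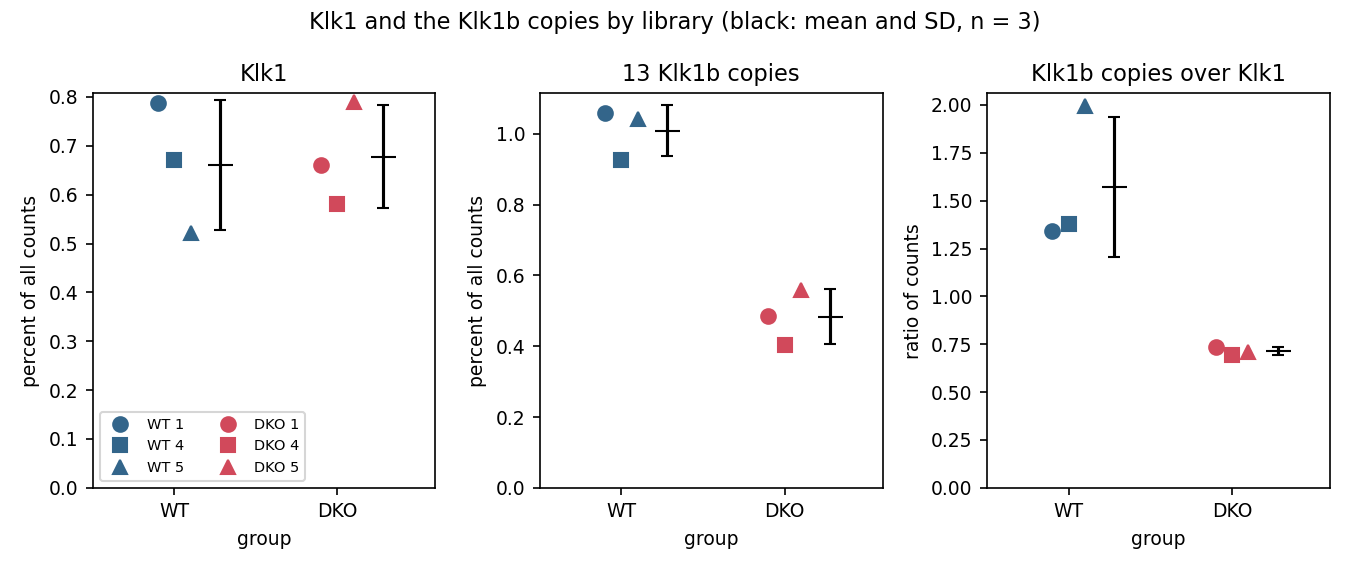
Share of all counts held by Klk1 (left, percent) and by the 13 Klk1b copies (middle, percent), and the ratio of the copies' summed count to that of Klk1 (right), with a point for each library and the mean and SD of each group in black (n = 3). The groups mix for Klk1, and for the ratio every WT library is at or above 1.34 and every DKO library at or below 0.735.

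Within the Klk1b pool, most copies held similar shares in both groups. Klk1b26 held 43.2% ± 1.71 of the Klk1b counts in WT and 43.7% ± 0.253 in DKO (SD, n = 3), followed by Klk1b22 with 13.04% ± 0.529 and 11.9% ± 0.688 and Klk1b11 with 10.5% ± 1.14 and 12.2% ± 0.869. The shares overlapped between groups for every copy other than Klk1b24 and Klk1b4. The share of Klk1b24 was 0.397% ± 0.00725 in WT and 0.314% ± 0.0208 in DKO, and that of Klk1b4 was 5.07% ± 0.155 and 4.42% ± 0.536 (SD, n = 3), with no test made on these shares.

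Levels of different genes were compared as normalized counts per kilobase of annotated exon. In WT, Klk1 had 151494 ± 28659 per kb, Klk1b26 77599 ± 1464, Klk1b22 37988 ± 2350 and Klk1b11 30180 ± 3455 (SD, n = 3). The order went on with Klk1b9, Klk1b4, Klk1b16, Klk1b5, Klk1b21, Klk1b3, Klk1b8, Klk1b1 and Klk1b27 down to Klk1b24 at 1126 ± 40.0, so the copies covered a wide range of levels. Of the 13 neighbouring pairs in the WT order, the 3 that overlapped between libraries were Klk1b16 with Klk1b5, Klk1b5 with Klk1b21, and Klk1b3 with Klk1b8. In DKO, 10 of 14 genes held the same rank and none shifted by more than 1 rank, Klk1b11 passing Klk1b22 and Klk1b5 passing Klk1b16. In the DKO order 6 neighbouring pairs overlapped, and both of these swaps were among them. The order depends on the lengths used. Per kilobase of coding sequence alone, Klk1 was 1.52 rather than 1.95 times Klk1b26 in WT, and Klk1b16 and Klk1b5 stood above Klk1b4.

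Along the chromosome, the fall was spread over the whole run of copies. The 7 copies nearest to Klk1 had a median log2 fold change of -0.96 and the 6 farthest copies -0.79. As a description over 13 copies, which share libraries, Spearman's rho of the log2 fold change with position was -0.319 and with the WT level per kb 0.225. At the ends of the run lie the members that did not pass the test, Klk1 on one side and, 4.74 kb before Klk1b8 on the other, the pseudogene Klk1b7-ps. Klk1b7-ps had 25, 39 and 56 counts in WT 1, 4 and 5 and 52, 37 and 35 in DKO 1, 4 and 5. The pseudogene's groups overlapped, and its log2 fold change was 0.18 (95% interval -0.55 to 0.92, adjusted p = 0.922, DESeq2), and the lower bound of that interval lies close to the estimate of Klk1b11. Its sign turned with total counts as size factors (-0.039) and without WT 1 (-0.045). The annotation holds 11 Klk pseudogenes in all, of which 10 had no row among the deposited counts.

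**Figure D4:**
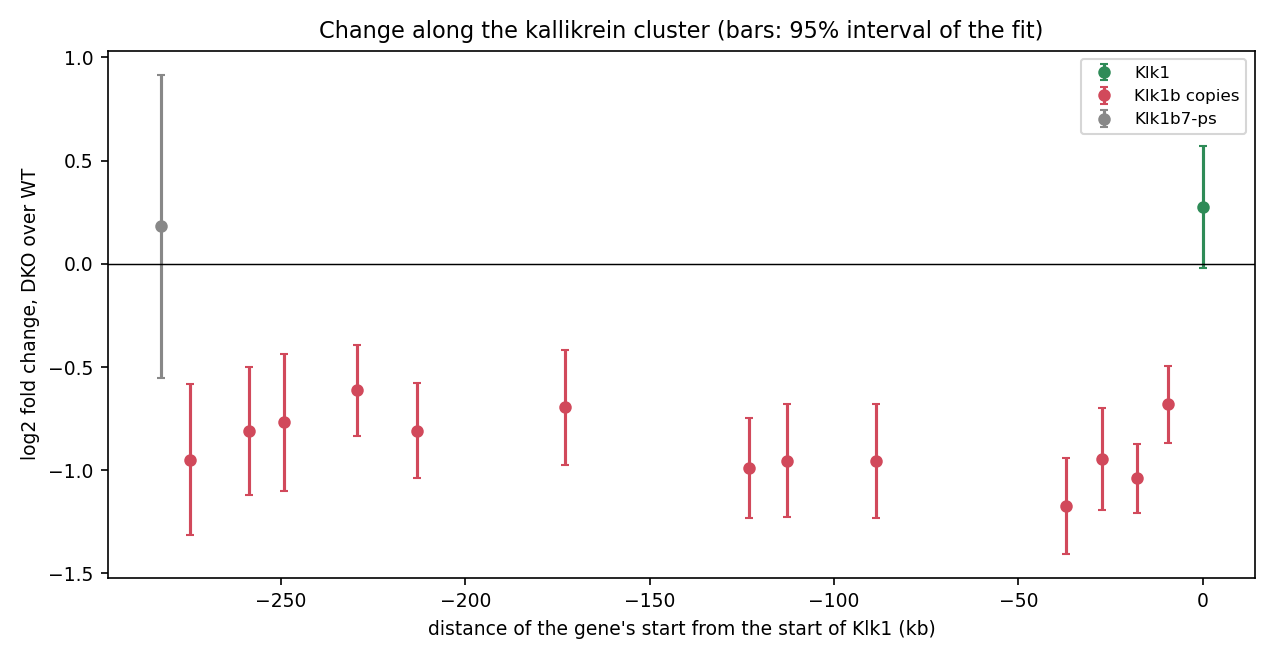
Log2 fold change of DKO over WT, with its 95% interval from the DESeq2 fit, against the distance of each gene's start from that of Klk1 in kb. The 13 Klk1b copies lie between -1.17 and -0.61 with intervals below 0, whereas the intervals of Klk1 at the right and Klk1b7-ps at the left include 0.

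Klk4 to Klk15 had few or no counts in these glands. Of the 12 genes, 6 had 0 counts in all libraries, which allows up to 3 counts, or a CPM of 0.127 in the shallowest library. A further 4 had fewer than 10 counts over all 6 libraries, and 2 were tested. Klk8, known as neuropsin, had 14, 5 and 9 counts in WT 1, 4 and 5 and 4, 6 and 4 in DKO 1, 4 and 5, a log2 fold change of -0.87 ± 0.84 (SE, adjusted p = 0.764, DESeq2). Klk15 had 0, 5 and 3 against 1, 1 and 0 counts and received no adjusted p. No difference was detectable in these genes at this depth.

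Within 500 kb on either side or inside the cluster lie 54 other rows, of which 32 were tested and 5 received no adjusted p. Their median log2 fold change was -0.037, 2 of 32 were lower in DKO, against 1.88% of all rows tested, and 0 were higher. The row 1700028J19Rik lies on the minus strand 192 bases past the end of Klk1 and had 103, 104 and 96 counts in WT 1, 4 and 5 and 52, 48 and 47 in DKO 1, 4 and 5. Its groups were widely separated, with a log2 fold change of -0.91 ± 0.26 (SE, adjusted p = 0.0212, DESeq2), but it passed in none of the 6 fits that left out a library (adjusted p 0.0567 to 0.178). Spib, a transcription factor of B cells and plasmacytoid dendritic cells 296374 bases past Klk1, had 35, 6 and 11 against 2, 1 and 2 counts (log2 fold change -3.27, adjusted p = 0.0434, DESeq2), but of the 6 fits that left out a library it passed only in that without WT 4. It did not pass without WT 5 (0.125), DKO 1 (0.101) or DKO 5 (0.17), and received no adjusted p without DKO 4 or without WT 1, the library with most of its WT counts.

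Of the granular duct products other than kallikreins, Egf, a growth factor, fell from 64875 ± 5065 to 40079 ± 6834 normalized counts (SD, n = 3), a log2 fold change of -0.69 (adjusted p = 1.60e-05, DESeq2). This change lay between the extremes of the Klk1b copies, but Egf did not pass by edgeR (adjusted p = 0.123) or limma-voom (0.121). Ren1, renin, had 47665, 49381 and 93 counts in WT 1, 4 and 5 and 119, 11964 and 20443 in DKO 1, 4 and 5, and its groups overlapped (adjusted p = 0.876, DESeq2). Crisp3 and Crisp1, from the same list, also overlapped between groups and did not pass. Crisp3 went from 76452 ± 4500 to 56025 ± 20169 normalized counts (SD, n = 3, log2 fold change -0.45, adjusted p = 0.59, DESeq2). The log2 fold change of Crisp1 was -3.80 (adjusted p = 0.0858, DESeq2).

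Most genes listed for the kinin pathway and for inhibitors had few or no counts. Of 14 genes for substrates, receptors, peptidases and inhibitors, 10 fell under the count filter, 4 were tested and 1 was lower. Over all rows tested, 1.88% were lower. The kininogen genes Kng1 and Kng2 had 1 count each over all libraries, and the bradykinin receptor genes Bdkrb1 and Bdkrb2 had 0 and 7. Klkb1 had 4 counts and Spink5, an inhibitor of kallikreins, had 2. F2rl1, a receptor that trypsin-like proteases activate, had a log2 fold change of -0.13 (adjusted p = 0.949, DESeq2), which turned to 0.067 in the fit without WT 1. Mme, neprilysin, a peptidase that degrades kinins, fell from 1744 ± 159 to 1302 ± 34.6 normalized counts (SD, n = 3, log2 fold change -0.42, adjusted p = 0.00541, DESeq2), but did not pass without WT 1 (0.109) or DKO 5 (0.0836).

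Hormone receptors were listed because Klk1b copies are known to depend on androgen and thyroid hormone in this gland. Of 7 tested, 1 was lower, against 1.88% of all rows tested. It was Pgr, the progesterone receptor, with 117 ± 19.4 against 65.5 ± 12.3 normalized counts (SD, n = 3, log2 fold change -0.83, adjusted p = 0.0448, DESeq2). Pgr passed in only 1 of 6 fits that left out a library, the fit without DKO 1, with adjusted p of 0.0815 to 0.41 in the others. Among 6 serine proteases outside the kallikrein family, 5 were tested, of which 1 was lower and 1 higher. Over all rows tested, 2.9% changed in either direction. Prss23 fell by a log2 of 0.63 (adjusted p = 0.000522, DESeq2). Prss8, prostasin, rose by a log2 of 0.45 (adjusted p = 0.00671, DESeq2), with adjusted p of 0.062 to 0.116 without WT 1, WT 5, DKO 4 or DKO 5, and with total counts as size factors its log2 fold change was 0.21 (adjusted p = 0.212).

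Among marker lists of the gland's cell types, most members of the myoepithelial list passed the test and few members of the others did. Over all rows tested, 1.88% were lower and 2.9% changed in either direction. Of 16 duct markers, 2 were lower, Scnn1g (log2 fold change -0.55) and Kit (-0.63), the median of the list was -0.21, and its summed level was 27864 to 29090 normalized counts in WT and 25464 to 27320 in DKO. Scnn1g did not pass without WT 5 (adjusted p = 0.081, DESeq2). Of 9 tested myoepithelial cell (MEC) markers 8 were lower, namely Acta2, Cnn1, Tagln, Myh11, Myl9, Mylk, Tpm2 and Krt14, with a median of -0.74 and sums of 11533 to 12469 in WT against 6353 to 8281 in DKO. Krt14 passed only in the fit without DKO 1 when libraries were left out, with adjusted p of 0.0503 to 0.124 in the others. None of the 8 MEC markers passed by edgeR (adjusted p 0.0562 to 0.123) or limma-voom (0.056 to 0.155). Of 7 acinar markers Aqp5, a water channel, was higher (log2 fold change 0.54), the median was 0.33, and Aqp5 did not pass without WT 1, WT 5, DKO 4 or DKO 5 (adjusted p 0.0607 to 0.283). With total counts as size factors the log2 fold change of Aqp5 was 0.30 (adjusted p = 0.124, DESeq2). Of 6 leukocyte markers 2 were lower, Ighm and Cd74, with sums of 3720 to 9075 in WT and 2231 to 2998 in DKO, and Cd74 did not pass without DKO 4 (adjusted p = 0.182, DESeq2). Sublingual gland markers summed to 107 to 90185 in WT and 84.2 to 6361 in DKO, and Bpifb2 was at 0 in all libraries. The part of these cell types in the fall of the Klk1b copies was not tested.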

How the data were processed

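The authors sequenced unstranded Nextera XT libraries on a HiSeq2500 and deposited raw counts per gene symbol. Per the labels, the processing used STAR 2.5.2a, DESeq2, edgeR and limma, with GRCm38, mm10 and GRCh38 named as builds. The counting tool, annotation and treatment of reads with several matches were not given in the sources used here. A deposited table of normalized signal was not used. Here, rows of the unfiltered table with at least 10 counts over the 6 libraries (18606 rows) were tested with DESeq2 1.42.0 in R 4.3.3 (median-of-ratios size factors, 0.867 to 1.12, which give the normalized counts; Wald test, two-sided; log2 fold changes without shrinkage; Benjamini-Hochberg adjustment over all rows; threshold 0.05). Every kallikrein row with at least 10 counts is named, and of the gene lists those with an adjusted p under 0.05 and some set by name (Egf, Ren1, Kng1, Kng2, Bdkrb1, Bdkrb2, Spink5, F2rl1 and Klkb1). Crisp1 and Crisp3 were named in addition. A listed item is not reported here. Members, lists and markers were chosen with earlier results of these data known. Coordinates were matched by symbol to GENCODE M21 for 27 of 27 members. Coding sequences were compared in place of proteins. Alternatives were edgeR 4.0.16, limma-voom (limma 3.58.1), other size factors and filters, the replicate number as a block, and libraries left out. Each pair of libraries of 1 group differed by more than sampling noise (chi-square per degree of freedom 16.8 to 43.4).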

Additional observations from a re-analysis of the deposited data

How the results depend on the processing

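The 13 Klk1b copies stayed lower, all 13, with size factors from TMM or from total counts, with no count filter, with at least 10 counts in at least 3 libraries, with the authors' filtered table, and with independent filtering or Cook's filter off. The count was 2 by edgeR, 3 by limma-voom (Klk1b24, Klk1b4 and Klk1b21), 11 to 13 with single libraries left out and 9 without WT 5 and DKO 1. Both tools kept every copy's fold change negative, with adjusted p up to 0.16 and 0.191, and the cause was not tested. Outside the copies, Mme, Pgr, Prss23, Prss8, Scnn1g, Kit, Aqp5, Ighm, Cd74, 1700028J19Rik and Spib passed by neither tool. Klk1 did not pass under any of 17 alternatives (log2 fold change 0.037 to 0.37). Total counts as size factors moved the median of all rows by -0.24, with the copies' median then at -1.18 and Klk1 at 0.037. The number of all rows called, 539, was 10 by edgeR, 7 by limma-voom, 1469 with total counts (95.8% of them lower, against 64.9%), 149 to 817 with single libraries left out and 183 without WT 5 and DKO 1. Independent filtering switched off left Spib and Pgr just short of the threshold (adjusted p = 0.0501 and 0.0518, DESeq2). The sign turned for Klk1b7-ps with total counts (-0.039) and without WT 1, and for F2rl1 without WT 1. With single libraries left out, the log2 fold change was -0.045 to 0.45 for Klk1b7-ps and -0.38 to 0.067 for F2rl1. The level of Klk1 over Klk1b26 was 1.52 per coding length in place of 1.95.

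Same-numbered libraries of the groups did not deviate together (correlations -0.133, -0.0244 and -0.259 over 11489 genes), and each library correlated best with a library of another number (0.271 to 0.446), so the numbers were not taken as pairs. With the replicate number as a block, 13 copies were lower and 343 rows were called, and 1700028J19Rik (adjusted p = 0.24, DESeq2), Krt14 (0.114), Pgr (0.229) and Scnn1g (0.0591) did not pass.

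With 3 libraries a group, the intervals of the scarce rows are wide, and 10 of the 12 genes Klk4 to Klk15 were too scarce to test. Sequence shared between copies limits what a value of a single copy means, less so their sum. Sequence shared between Klk1 and the copies bears on that sum, on Klk1 and on their ratio. WT 5 and DKO 1 differ from the other libraries in sublingual gland transcripts and in Ren1. Beyond leaving both libraries out, the part of these differences in the results was not tested.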
